A study of Mus musculus with 8 samples.

Results

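The 8 genes described here encode enzymes of heme biosynthesis: Alas1, Alas2, Alad, Uros, Urod, Cpox, Ppox and Fech. They were found by gene name among the 55681 non-control probes of the array and are carried by 10 probes, all of which were well above background on all 8 arrays. All 8 genes were therefore among the 23526 genes tested. Their levels were compared between livers of 4 C57BL/6J pups whose maternal chromosome lacked the miR-379/miR-410 cluster of microRNAs (called knockout) and livers of 4 wild-type littermates. All pups were taken by caesarean at E19.5 and killed 4 h later, and RNA came from a fragment of the large liver lobe. The paternal copy of the cluster was not deleted, and the deletion was present in every cell, so the comparison does not separate hepatocytes from the blood-forming cells of the newborn liver. In such whole-tissue RNA, fewer cells of a type and less RNA per cell cannot be told apart.

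Heme is built from glycine and succinyl-CoA in a chain that begins in the mitochondrion, passes through the cytosol and ends in the mitochondrion, where iron is inserted. The first enzyme, 5-aminolevulinate synthase, exists as a housekeeping form, Alas1, which heme represses and which supplies cytochromes in the hepatocyte, and as an erythroid form, Alas2, which supplies haemoglobin. The newborn liver of the mouse still makes red blood cells, so both kinds of demand meet in 1 tissue, while the later enzymes of the chain are shared by both.

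The array reads each enzyme through probes of 60 bases, placed on mm9 by the array files. No exon annotation of that build was used here. Alas2 has 1 probe, at chrX:147004993-147005052 on the plus strand, and its sequence is shown because the erythroid reading rests on it alone, with that of the probe of Alad, the enzyme with the smallest p-value:
Alas2 probe: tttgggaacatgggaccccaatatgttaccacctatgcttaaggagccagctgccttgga
Alad probe: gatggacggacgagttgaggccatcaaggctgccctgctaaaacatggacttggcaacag
Alas1 has a bright probe at chr9:106136284-106136343 and a dim probe at chr9:106135796-106135855, both on the minus strand. Their starts lie 488 bases apart in the same transcript, and the bright probe holds the letters AATAAA, the usual polyadenylation signal, from its base 51.

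Promoter windows from RefSeq (assembly GRCm38.p6) matched 7 of the 8 enzymes in 10 windows. The 250 bases before the start site are shown for Alas2 and Cpox, whose windows hold letters bound by GATA factors as does 1 of the Uros windows, and for the upstream window of Alas1, which holds none. Capitals mark any of the motifs searched, on either strand:
Alas2 promoter, chrX:150547167-150547416, plus strand: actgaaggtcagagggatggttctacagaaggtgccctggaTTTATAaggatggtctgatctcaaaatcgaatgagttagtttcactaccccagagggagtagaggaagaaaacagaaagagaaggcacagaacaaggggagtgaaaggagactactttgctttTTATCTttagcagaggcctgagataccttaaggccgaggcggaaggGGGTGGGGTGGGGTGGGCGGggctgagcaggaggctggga
Cpox promoter, chr16:58669958-58670207, plus strand: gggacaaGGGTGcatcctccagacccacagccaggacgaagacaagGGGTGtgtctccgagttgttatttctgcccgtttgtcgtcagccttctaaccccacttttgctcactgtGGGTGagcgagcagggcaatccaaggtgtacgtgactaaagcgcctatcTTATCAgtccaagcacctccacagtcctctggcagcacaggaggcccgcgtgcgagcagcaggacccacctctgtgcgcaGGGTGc
Alas1 promoter, chr9:106247955-106248204, minus strand: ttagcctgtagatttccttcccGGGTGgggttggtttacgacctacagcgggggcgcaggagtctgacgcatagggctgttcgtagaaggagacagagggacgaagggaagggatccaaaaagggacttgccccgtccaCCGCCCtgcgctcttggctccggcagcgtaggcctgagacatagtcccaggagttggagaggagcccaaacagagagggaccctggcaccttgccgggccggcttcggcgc
Motifs were searched on both strands of windows that run from 250 bases before to 50 bases after the start. Factors of the GATA family are known to bind AGATAA and, in another form, TGATAA. Among the others, KLF factors bind CACCC and Sp factors bind GGGCGG, and a classic promoter box is TATAAA. Forkhead factors bind GTAAACA, the AP-1 and NFE2 factors share TGACTCA, and CREB factors bind TGACGT. The Alas2 window holds AGATAA 1 time, 86 bases before the start, and CACCC 3 times in a row, the last of which shares a base with a GGGCGG match. The Cpox window holds TGATAA 1 time, also 86 bases before the start, AGATAA 1 time, from the fifth base after the start, and CACCC 4 times. Of all 32851 promoters, 11.18% hold AGATAA, 9.053% TGATAA, 57.52% CACCC, 35.66% GGGCGG and 13.62% TATAAA. The share is 3.65% for GTAAACA, 5.202% for TGACTCA and 7.513% for TGACGT, and none of the 10 windows holds any of these. A Uros window holds TGATAA 1 time, 68 bases before its start. The second Alas1 window, at a start site further along the gene, holds 1 CACCC and no GATA letters. A match is a run of letters and not a measured binding site.

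Every level below is a log2 processed signal from which the 75th percentile of its array was subtracted, and means carry the SD over arrays. A difference is the knockout mean less the wild-type mean, on the log2 scale, and is followed by its standard error (SE). Mirg, a noncoding RNA of the deleted domain, averaged -0.53 ± 0.33 in knockout livers and 2.17 ± 0.06 in wild-type livers (SD, n = 4 each). Knockout 4 carried both Xist, the RNA of the inactive X chromosome, at -0.13 and the Y-linked Ddx3y at 1.82, both well above background, and replicate 4 of each group lay closest to a weighted sum of its group (residual SD 0.18 for knockout 4 and 0.22 for wild-type 4, against 0.22 to 0.40 for the other arrays), so it may not be an independent pup. If it is not, p-values from 8 arrays are too small, and values from the 6 other arrays are given for the enzymes and some other genes. All other p-values below, those without wild-type 1 included, keep replicate 4 of at least 1 group. Of the other arrays, Xist was well above background in knockout 1 and 2 only, and Ddx3y in knockout 3, wild-type 1, wild-type 2 and wild-type 4, and neither was in wild-type 3, so sex and genotype partly coincide. All arrays lay on 1 slide, each group in a column of its own, so that column and genotype cannot be told apart. Spots well above background made up 58.6% to 66.2% of each array, and none was saturated. Markers of the pancreas, an organ next to the liver, set wild-type 3 and 4 apart: over 13 of 17 listed that were tested, their mean level, relative to the wild-type mean, was -2.04, -1.89, -1.89 and -1.81 in the knockout arrays, against -1.01, -2.71, 2.34 and 1.38 in the wild-type arrays. Summed in units of the 75th percentile, these markers reached 15.7 to 24.5 in knockout livers and 24.0 to 165 in wild-type livers, and none was called.

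None of the 8 enzymes passed the threshold of a limma adjusted p of 0.05, either with 8 arrays or with 6. Over all genes, 0.0383% were called higher and 0.179% called lower with 8 arrays, and with 6 arrays these shares were 0% and 0.0213%. All 8 enzymes had a higher mean in knockout livers, where 56.6% of all genes did. With 6 arrays 7 did, against 55.9% of all genes, and Alas1 stood at -0.02. The median difference of the enzymes was 0.24 with 8 arrays and 0.27 with 6, against 0.03 for all genes in both. Leaving out wild-type 1 brought that median to 0.14. At an unadjusted p of 0.05, 1 enzyme (Alad) passed with 8 arrays and none with 6. Over all genes 6.89% passed as higher with 8 arrays and 3.45% with 6. The 95% interval of a difference reached 0.31 to either side at the median of the enzymes, against 0.26 for all genes, and only the interval of Alad left out 0.

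**Figure D1:**
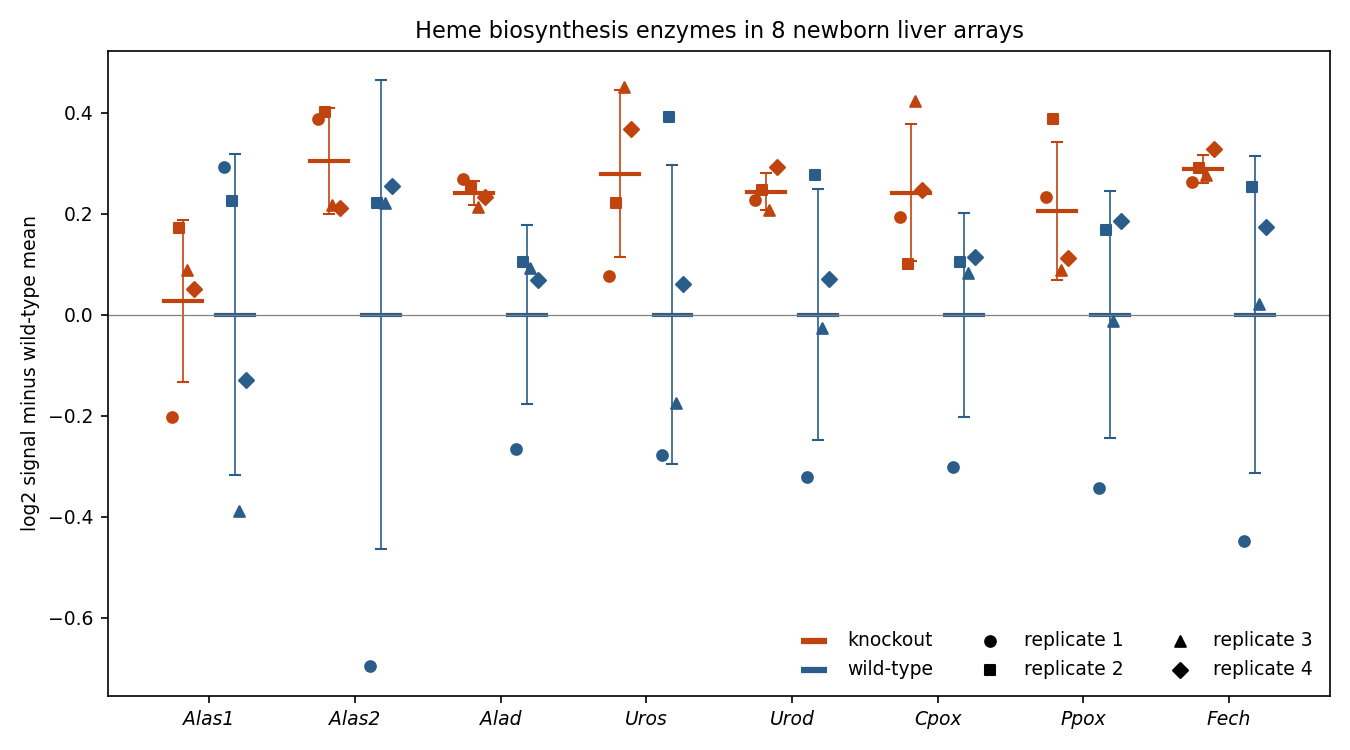
Level of each enzyme on each of the 8 arrays (log2 signal minus the mean of the wild-type arrays), with knockout in orange to the left and wild-type in blue to the right. Bars are group means and whiskers the SD over 4 arrays. Wild-type 1 (blue circle) is the lowest array for every enzyme but Alas1, for which it is the highest.

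Alas2, the erythroid first enzyme, stood at 7.45, 7.47, 7.28 and 7.28 in the knockout arrays, against 6.37, 7.29, 7.29 and 7.32 in the wild-type arrays. One wild-type array was about 0.93 below the mean of the other 3, and those 3 lay within 0.04 of each other and within the range of the knockout arrays. The difference was 0.30 ± 0.21 (SE), a 1.23-fold higher level in knockout livers, with a 95% interval from -0.17 to 0.78 and a limma adjusted p of 0.541. With 6 arrays the difference was 0.42 (limma adjusted p = 0.741). Without wild-type 1 it was 0.07 ± 0.07 (limma adjusted p = 0.682), so the size of the difference rests on that array. Alas2 lies on the X chromosome, and the knockout arrays with Xist alone, knockout 1 and 2, were its highest of the 8. The mean level of the erythroid markers given below was also highest there, at 0.31 and 0.34 relative to the wild-type mean. The part of X linkage in the Alas2 values was not tested. With Xist as a covariate the Alas2 difference was 0.15 ± 0.36, and with Ddx3y it was 0.25 ± 0.21 (SE). Xist was well above background in knockout arrays only, so that covariate and genotype partly coincide.

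Alas1, the housekeeping first enzyme, stood at 4.14, 4.52, 4.43 and 4.40 in the knockout arrays, against 4.64, 4.57, 3.96 and 4.22 in the wild-type arrays. The highest and the lowest array were both wild-type, and the knockout arrays lay between them. The difference was 0.03 ± 0.16 (SE), with a 95% interval from -0.34 to 0.39 and a limma adjusted p of 0.950. The lowest wild-type arrays for Alas1 were wild-type 3 and 4, those with the high pancreas markers, and without both the difference was -0.23 ± 0.12 (limma adjusted p = 0.449). The part of those markers in the Alas1 values was not tested. The dim probe gave -0.72, -0.52, -0.83 and -0.81 in the knockout arrays, against -0.61, -0.48, -0.78 and -0.61 in the wild-type arrays. It ran in the opposite direction, by -0.10 ± 0.10 (adjusted p = 0.686, limma over all kept probes), and neither probe separated the groups.

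The direct contrast, Alas2 minus Alas1 on each array, was set at the wild-type mean, since the levels of 2 probes cannot be compared as such. On that scale it was 0.59, 0.23, 0.13 and 0.16 in the knockout arrays, against -0.99, -0.01, 0.61 and 0.38 in the wild-type arrays. The knockout arrays were all inside the wild-type range. The erythroid form was higher relative to the housekeeping form by 0.28 in knockout livers, which an exact two-sided permutation test over the 70 assignments of 8 arrays did not separate (p = 0.657, smallest possible p 0.0286). With 6 arrays the contrast was 0.44 (exact permutation p = 0.5, smallest possible 0.1). Without wild-type 1 it turned to -0.05 (exact permutation p = 0.771). Without wild-type 3 and 4, the arrays high in pancreas markers, it was 0.77 (exact permutation p = 0.0667, the smallest that 4 against 2 arrays allow). With Xist as a covariate the contrast was 0.05 ± 0.54, and with Ddx3y it was 0.15 ± 0.29 (SE, limma, 8 arrays). Read with the dim Alas1 probe, an alternative chosen after the data were seen, it was 0.40 with 8 arrays (exact permutation p = 0.0571) and 0.49 with 6 (exact permutation p = 0.2).

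The cytosolic enzymes act next. Alad joins 2 molecules of 5-aminolevulinate into porphobilinogen, and its probe lies at chr4:62172559-62172618 (mm9, minus strand). It stood at 4.58, 4.56, 4.52 and 4.54 in the knockout arrays, against 4.05, 4.41, 4.40 and 4.38 in the wild-type arrays. The knockout arrays lay above all wild-type arrays and within 0.06 of each other. The difference was 0.24 ± 0.09 (SE; 1.18-fold, 95% interval 0.03 to 0.46), with a limma adjusted p of 0.327. It was 0.27 with 6 arrays (limma adjusted p = 0.708) and 0.15 ± 0.05 without wild-type 1 (limma adjusted p = 0.263). Alad and Fech were the enzymes whose groups did not overlap, 2 of 8. Over all genes, 4.76% were separated upward with 8 arrays. With 6 arrays the same 2 were separated, against 7.46% of genes.

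Uros closes the linear tetrapyrrole into uroporphyrinogen III. Its bright probe, at chr7:140878069-140878128 (mm9, minus strand), stood at 4.02, 4.17, 4.40 and 4.32 in the knockout arrays, against 3.67, 4.34, 3.77 and 4.01 in the wild-type arrays. The groups overlapped, wild-type 2 lying above knockout 1 and 2. The difference was 0.28 ± 0.15 (limma adjusted p = 0.459), and 0.27 with 6 arrays (limma adjusted p = 0.766). A second, dim probe at chr7:140883818-140883876 ran the same way, by 0.35 ± 0.20 (adjusted p = 0.497, limma over all kept probes).

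Urod removes the acetate carboxyl groups of uroporphyrinogen. Its probe, at chr4:116662850-116662909 (mm9, minus strand), stood at 7.12, 7.14, 7.10 and 7.19 in the knockout arrays, against 6.58, 7.17, 6.87 and 6.97 in the wild-type arrays. Wild-type 2 reached the knockout values and the other 3 lay below them. The difference was 0.24 ± 0.12 (limma adjusted p = 0.419), 0.25 with 6 arrays (limma adjusted p = 0.742) and 0.14 ± 0.08 without wild-type 1 (limma adjusted p = 0.488).

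The last enzymes are mitochondrial. Cpox, which oxidises coproporphyrinogen III, has its probe at chr16:58680403-58680465 (mm9, plus strand) and stood at 5.43, 5.33, 5.66 and 5.48 in the knockout arrays, against 4.93, 5.34, 5.31 and 5.35 in the wild-type arrays. Knockout 2 lay among the wild-type arrays and wild-type 1 well below them. The difference was 0.24 ± 0.12 (limma adjusted p = 0.412), 0.28 with 6 arrays (limma adjusted p = 0.732) and 0.14 ± 0.09 without wild-type 1 (limma adjusted p = 0.485).

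Ppox, which oxidises protoporphyrinogen IX, has its probe at chr1:173207452-173207629 (mm9, minus strand), a span of 178 bases that a 60-base probe can only cover across a gap. It stood at 4.72, 4.87, 4.57 and 4.60 in the knockout arrays, against 4.14, 4.65, 4.47 and 4.67 in the wild-type arrays. The groups overlapped, wild-type 2 and 4 lying above knockout 3 and 4. The difference was 0.21 ± 0.13 (limma adjusted p = 0.512), 0.30 with 6 arrays (limma adjusted p = 0.728) and 0.09 ± 0.10 without wild-type 1 (limma adjusted p = 0.689).

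Fech, ferrochelatase, inserts iron into protoporphyrin IX. It stood at 7.35, 7.38, 7.36 and 7.41 in the knockout arrays, against 6.64, 7.34, 7.11 and 7.26 in the wild-type arrays. The knockout arrays lay within 0.06 of each other and above all wild-type arrays, the nearest of which, wild-type 2, was 0.01 below the lowest of them. The difference was 0.29 ± 0.14 (1.22-fold; limma adjusted p = 0.424), 0.33 with 6 arrays (limma adjusted p = 0.732) and 0.14 ± 0.07 without wild-type 1 (limma adjusted p = 0.418).

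**Figure D2:**
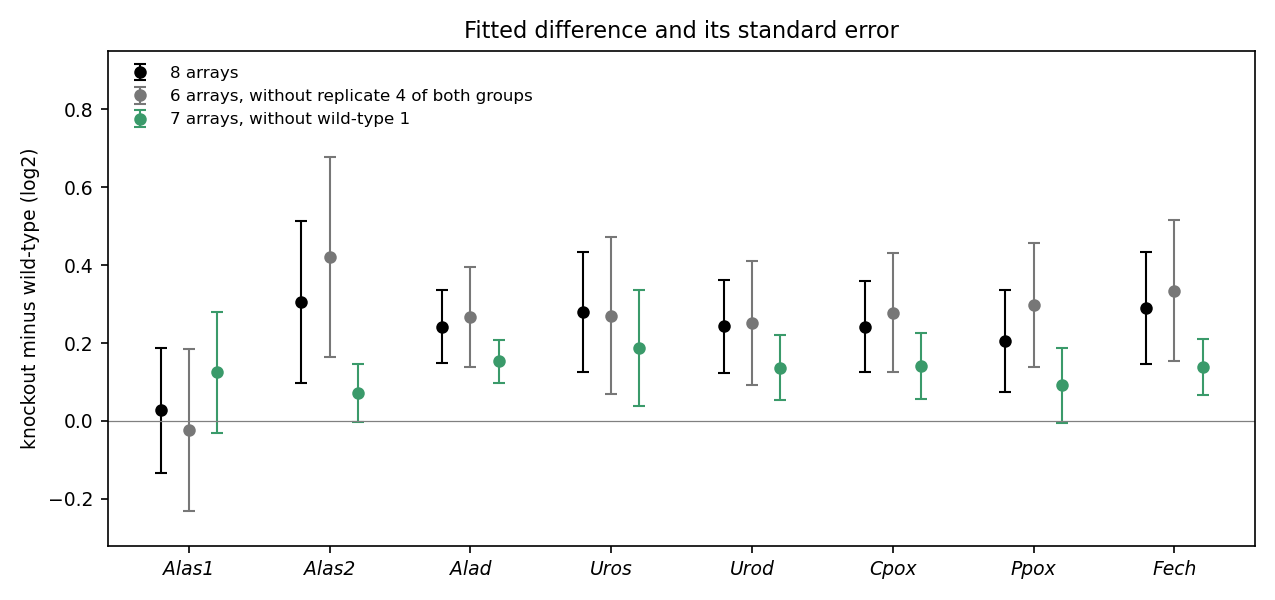
Knockout minus wild-type difference of each enzyme (log2) with its SE, from all 8 arrays (black), the 6 arrays without replicate 4 (grey) and the 7 arrays without wild-type 1 (green). Without wild-type 1 the difference of Alas2 is 0.07 against 0.30, and that of each other enzyme but Alas1 is smaller too.

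Wild-type 1 was the lowest of the 8 arrays for 7 of the 8 enzymes, whereas it was the lowest for 26.55% of all genes. It stood below the mean of the other 3 wild-type arrays by between 0.35 (Alad) and 0.93 (Alas2) for these 7, and above it by 0.39 for Alas1. The 75th percentile subtracted from wild-type 1 was the highest of the 8, a processed signal of 644 against 509 to 614. The part of that percentile in these levels was not tested. The SD of the wild-type arrays was larger than that of the knockout arrays for all 8, from 1.48 times for Cpox to 11.3 times for Fech. The pattern over the 8 arrays was closest between Fech and Urod, whose centred levels differed by 0.05 on average, and furthest between Alas1 and Alas2, by 0.32. Alas1 was between 0.19 and 0.32 from every other enzyme.

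Markers of erythroid cells were set beside the enzymes. Of 31 listed, Alas2 not among them, 30 were tested, 26 with a higher mean in knockout livers, against 56.6% of all genes, and none called. The groups did not overlap for 6 of the 30 with knockout higher, where 4.76% of all genes were separated that way. They did not overlap for 1 with knockout lower, where 1027 of 23526 genes were. That 1 was Hemgn, at -0.27 ± 0.09 (limma adjusted p = 0.271). The abundant alpha globins Hba-a1 and Hba-a2 were near 0, at -0.01 ± 0.11 and -0.04 ± 0.08 (chosen after their values were seen, as was Hemgn). The median difference of the 30 was 0.30, against 0.14 without wild-type 1. Their mean level, set at the wild-type mean, was 0.31, 0.34, 0.16 and 0.23 in the knockout arrays, against -0.33, 0.21, 0.00 and 0.11 in the wild-type arrays. Wild-type 1 was again the lowest array, and wild-type 2 lay within the knockout range. Summed over the list on the linear scale, in units of the 75th percentile, the levels were 3633 to 3961 in knockout livers and 2926 to 4070 in wild-type livers. Such a sum is weighted towards the brightest genes, here Hba-a1 and Hba-a2, with log2 means of 10.25 and 9.69 in knockout livers. Of 14 hepatocyte markers 13 were tested, with a median difference of -0.04, none called, and summed levels of 5803 to 6050 in knockout livers against 5391 to 6479 in wild-type livers. Alb, albumin, averaged 10.14 ± 0.04 in knockout livers and 10.18 ± 0.14 in wild-type livers (SD, n = 4 each). The mean level of the hepatocyte markers, relative to the wild-type mean, was also lowest in wild-type 1, at -0.12, with knockout 3 at -0.12 too. That of 10 granulocyte markers, none called, was lowest there as well, at -0.19, against -0.02 to 0.14 in the other arrays. The part of the erythroid markers in the enzymes' differences was not tested.

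**Figure D3:**
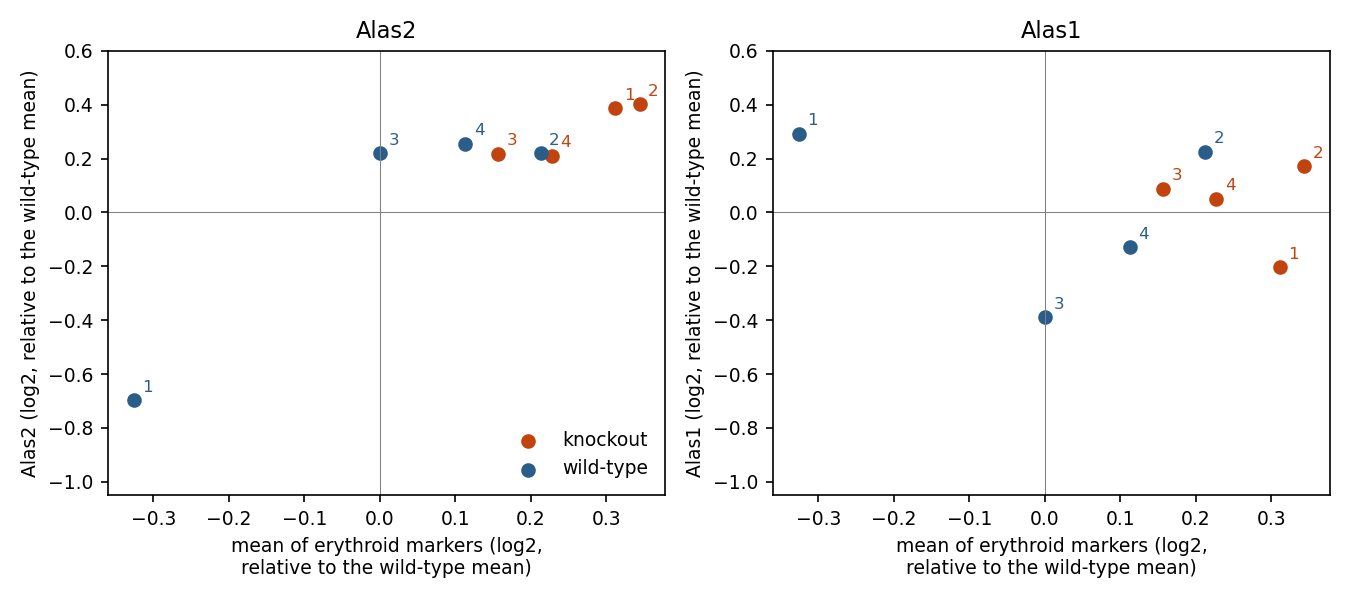
Level of Alas2 (left) and Alas1 (right) against the mean level of 30 erythroid markers on each array, all as log2 relative to the wild-type mean, with knockout in orange, wild-type in blue and the replicate number beside each point. Wild-type 1 stands alone at the low end of both axes for Alas2, at -0.33 on the marker axis, and at the top for Alas1.

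The 5 genes whose pattern over the 8 arrays was most like that of Alas2, by the mean absolute difference of centred log2 levels among 23525 genes, were E2f2 (0.03), Cdr2 (0.04), Slc4a1 (0.04), Hipk1 (0.04) and Rffl (0.04). The range of Alas2 over the arrays was 1.10. These genes were picked for their closeness to Alas2 over these same arrays, wild-type 1 included, so that closeness is not a separate result. E2f2 stood at 6.51, 6.52, 6.37 and 6.33 in the knockout arrays, against 5.52, 6.41, 6.35 and 6.39 in the wild-type arrays. For Alas1, among the 17876 genes that varied by at least 50% of its own range of 0.68, the closest were Adal (0.05), Ms4a6d (0.05), Anxa9 (0.06), 5730407M17Rik (0.06) and Tfec (0.06).

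Genes that bring iron and glycine to the pathway or carry its intermediates were mostly higher in mean, like the enzymes. Of 24 listed, Slc25a37 also among the erythroid markers, 23 were tested and none called. A higher mean in knockout livers was found for 20 of the 23, against 56.6% of all genes. Their median difference was 0.13, and 0.10 without wild-type 1. Those with the smallest p were Tmem14c, a carrier of protoporphyrinogen into the mitochondrion, at 0.38 ± 0.09 (limma adjusted p = 0.136), Slc11a2, an iron importer, at 0.33 ± 0.11 (limma adjusted p = 0.25), and Tfrc, the transferrin receptor, at 0.44 ± 0.15 (limma adjusted p = 0.264). Tmem14c stood at 4.18, 3.97, 4.34 and 4.2 in the knockout arrays, against 3.73, 3.81, 3.83 and 3.79 in the wild-type arrays, and its difference was 0.36 without wild-type 1. Slc25a37, mitoferrin 1, which imports iron into erythroid mitochondria, differed by 0.38 ± 0.18 (limma adjusted p = 0.410) and by 0.19 without wild-type 1, and Slc25a38, the erythroid mitochondrial glycine carrier, by 0.17 ± 0.10 (limma adjusted p = 0.506).

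Of 7 heme breakdown genes listed, 6 were tested and 1, Slco1b2, was called lower, against 0.179% of all genes (0.0213% with 6 arrays). Slco1b2, a hepatocyte importer of organic anions, bilirubin among them, fell to 3.58, 3.37, 3.63 and 3.61 in the knockout arrays, against 4.98, 5.11, 4.96 and 4.89 in the wild-type arrays. The groups were far apart, by -1.44 ± 0.08 (limma adjusted p = 0.000367), and by -1.49 with 6 arrays (limma adjusted p = 0.0243). Hmox1, the inducible heme oxygenase that opens the heme ring, stood at 5.19, 5.35, 5.29 and 5.26 in the knockout arrays, against 5.43, 4.58, 4.62 and 4.55 in the wild-type arrays. Its difference was 0.48 ± 0.19 with 8 arrays (limma adjusted p = 0.338) and 0.40 with 6 (limma adjusted p = 0.741). Without wild-type 1 it was 0.69 ± 0.06 (limma adjusted p = 0.00971), in a fit that keeps replicate 4 of both groups. In wild-type 1 Hmox1 and Alas1 were at their highest and Alas2 at its lowest. Macrophage markers, 10 of 11 tested and none called, were also highest in wild-type 1: their mean level, relative to the wild-type mean, was -0.09, 0.04, -0.22 and -0.13 in the knockout arrays, against 0.23, -0.10, -0.03 and -0.10 in the wild-type arrays. Summed, they reached 225 to 260 times the 75th percentile in knockout livers and 224 to 297 times in wild-type livers, and their part in the Hmox1 values was not tested. Among them Marco, a scavenger receptor of macrophages chosen here after its values were seen, stood at 6.46, 6.29, 6.00 and 6.13 in the knockout arrays, against 6.54, 5.64, 5.76 and 5.62 in the wild-type arrays. Its difference was 0.33 ± 0.21 (limma adjusted p = 0.516). The list ran the other way: 8 of the 10 tested had a lower mean in knockout livers, with a median difference of -0.10. The other 4 tested members of the breakdown list were not called with 8 arrays.

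Heme proteins of the hepatocyte were listed together with partners such as Por, which passes electrons to cytochromes P450, and Hp, which binds free haemoglobin. Of 14 listed, 13 were tested, 12 with a lower mean in knockout livers and 1 called, and the median difference was -0.18. Over all genes 0.179% were called lower, and 10203 of 23526 had a lower mean. Without wild-type 1 10 of the 13 had a lower mean, with a median of -0.13. Cyp2e1, a cytochrome P450 of the mature liver, was the 1 called: it stood at 2.73, 3.49, 3.18 and 3.23 in the knockout arrays, against 7.26, 6.24, 5.94 and 6.05 in the wild-type arrays. The groups were apart by -3.22 ± 0.29 (limma adjusted p = 0.00498), and by -3.35 with 6 arrays (limma adjusted p = 0.104). Tdo2, the heme enzyme tryptophan dioxygenase, missed the threshold with -1.51 ± 0.28 (limma adjusted p = 0.0817), and with 6 arrays its difference was -1.44 (limma adjusted p = 0.520). Its levels were low, at -4.34 ± 0.31 in knockout livers and -2.82 ± 0.57 in wild-type livers (SD, n = 4 each).

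Among 12 known regulators of Alas2, 11 had a higher mean in knockout livers, against 56.6% of all genes, and none was called. Their median was 0.18, and 0.09 without wild-type 1. Gata1, Klf1, Nfe2 and Epor of this list also stand among the erythroid markers. The smallest p belonged to Ireb2, an iron regulatory protein that binds the Alas2 message, at 0.29 ± 0.12 (limma adjusted p = 0.367). Gata1, the erythroid GATA factor, differed by 0.20 ± 0.09 (limma adjusted p = 0.400), Tal1 by 0.26 ± 0.15 (limma adjusted p = 0.485) and Klf1, an erythroid KLF factor, by 0.20 ± 0.15 (limma adjusted p = 0.564). Without wild-type 1 these were 0.20 for Gata1, 0.13 for Tal1 and 0.09 for Klf1. Among 15 known regulators of Alas1, 14 were tested, 7 higher and 7 lower in mean, none called, with a median of 0.01. Those with the smallest p were Bach1, a repressor that heme releases from DNA, at 0.32 ± 0.12 (limma adjusted p = 0.311), Nr1i3, the nuclear receptor CAR, at -0.80 ± 0.34 (limma adjusted p = 0.362), and Creb1 at 0.16 ± 0.08 (limma adjusted p = 0.403). Nr1i3 stood at 0.50, 0.39, -0.01 and 0.02 in the knockout arrays, against 2.08, 0.42, 0.95 and 0.62 in the wild-type arrays, so it too was highest in wild-type 1, and without that array its difference was -0.44. Ppargc1a, a coactivator that raises Alas1 in fasted liver, differed by -0.05 ± 0.18 (limma adjusted p = 0.920), and Nr1d1, the clock repressor Rev-erb alpha, by 0.26 ± 0.24 (limma adjusted p = 0.648). Without wild-type 1 the differences were -0.23 for Ppargc1a and 0.11 for Nr1d1.

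**Figure D4:**
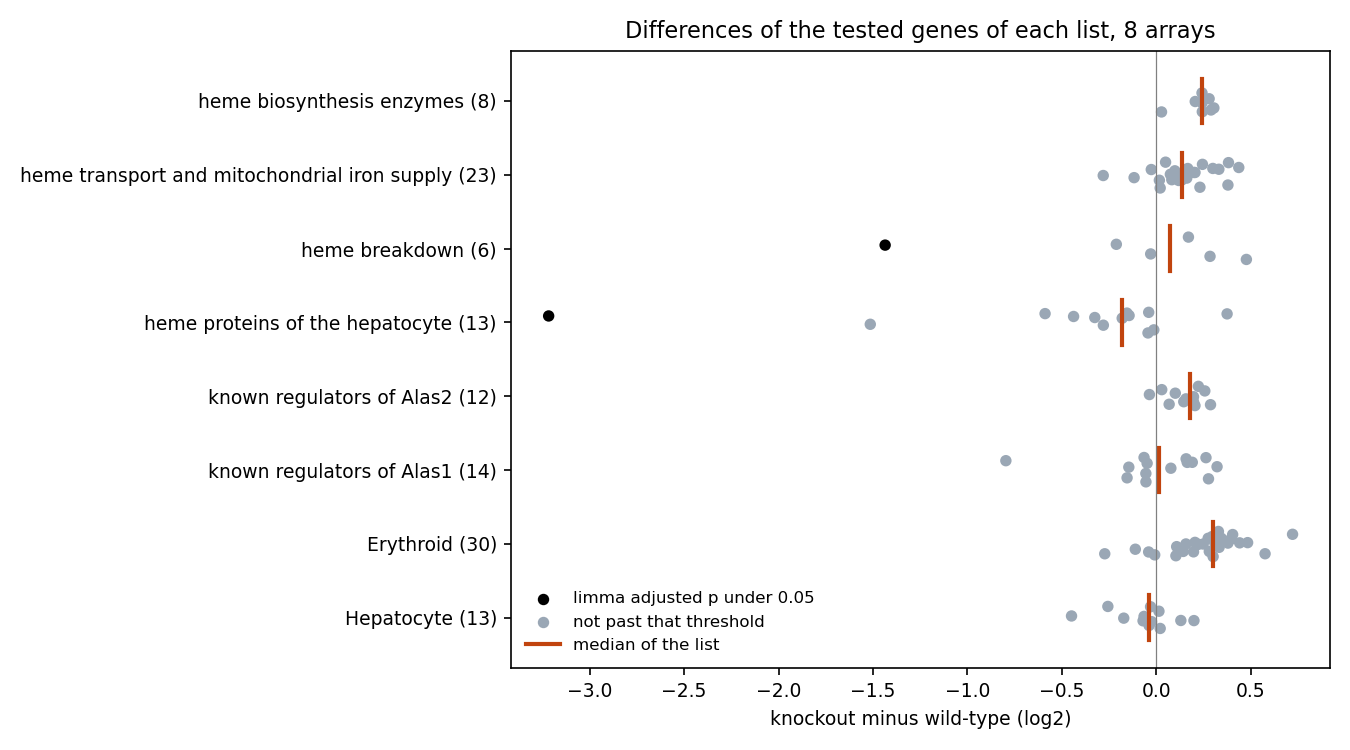
Knockout minus wild-type difference (log2, 8 arrays) of the tested genes of each list, with the number tested in brackets. Each point is a gene, black where the limma adjusted p is under 0.05, and the orange bar is the median of the list: 0.24 for the enzymes, 0.30 for the erythroid markers and -0.18 for the heme proteins of the hepatocyte.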

How the data were processed

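RNA of each liver was labelled with Cy3, and the authors deposited the spot intensity (processed signal, linear) that Agilent Feature Extraction 10.10 gave, the software and limma being named in the submitters' processing notes. A deposited table in log2 units holds 27084 probes, with column medians of 8.84 to 8.86. It correlated with each array's own log2 median signal at 0.99995 to 0.999994, and was used as an alternative only.

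From the scanner output, log2 processed signals minus each array's 75th percentile over unflagged non-control spots were computed, and spots of 1 probe were averaged. A probe was kept if well above background on at least 4 of 8 arrays, and the brightest kept probe stood for its gene. Symbols were updated through a RefSeq table (GRCm38.p6). Groups, taken from the sample titles, were tested two-sided in limma 3.58.1 under R 4.3.3 (linear model with eBayes), with Benjamini-Hochberg adjustment over 23526 genes. The fit was tested on simulated data, where few changes as small as the enzymes' differences were recovered. The number of arrays limits the precision. Replicate numbers did not pair the arrays: the deviations of same-numbered arrays correlated at -0.11, -0.03, -0.01 and 0.07.

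Named genes were the 8 enzymes, the called members of each pathway list or else its 3 smallest p, a fixed set of 11 genes, and the 5 most like Alas1 and Alas2; the other genes given with values (Tdo2, Hba-a1, Hba-a2, Hemgn, Marco) were chosen after their values were seen. Another gene of the rule is not reported here. The members and lists were chosen with earlier results of these data known. Alternatives varied how signals were corrected and scaled, which probes and arrays entered, the variance model, the covariates and the threshold.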

Additional observations from a re-analysis of the deposited data

Results flagged for a closer look

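In 68 checks of groups of 4 arrays with Dixon's test, 6 groups had 1 array far from the other 3. Gata1, Klf1 and Slc25a37 stand in more than 1 list and were checked more than 1 time. For a group taken alone chance gives about 1 in 20. The groups share the same arrays, so that rate cannot be set against the count. Of the 6 arrays found far off, 5 were wild-type 1. Alas2 stood at 6.37 there, against 7.29 to 7.32 in the other wild-type arrays, Alad at 4.05 against 4.38 to 4.41, and Cpox at 4.93 against 5.31 to 5.35. Ppargc1a stood at 3.16 there, against 3.85 to 3.90 in the other wild-type arrays, and Hmox1 at 5.43 against 4.55 to 4.62, the 1 gene of the 5 that was high and not low. The other was Slc25a38 in knockout 3, at 4.57 against 4.28 to 4.33 in the other knockout arrays.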

How the results depend on the processing

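Under all alternatives run, no enzyme was called, and 7 or 8 of the 8 had a higher mean in knockout livers, the exception always being Alas1. The difference of Alas1 turned to -0.0087 with normexp and quantile normalization together, -0.036 with the mean of its probes, -0.024 without replicate 4 of both groups, -0.23 without wild-type 3 and 4, and -0.015 without knockout 3 and 4. It ran from -0.10 to 0.12 when arrays were left out 1 at a time, reversing without wild-type 3 (-0.10), wild-type 4 (-0.016) or knockout 2 (-0.021). Alas2 minus Alas1 ran from -0.052 (without wild-type 1) to 0.48 in the same way, and was 0.77 without wild-type 3 and 4. As covariates, Xist gave 0.05 and Ddx3y 0.15 for it. Hmox1 passed the threshold only without wild-type 1.

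Over all genes, 9 were called higher and 42 lower in knockout livers. The counts were 14 and 66 with quantile normalization, 14 and 123 with normexp, 24 and 127 with both, 115 lower with the median signal, 20 and 123 with the deposited value table, 19 and 122 with that table quantile normalized, 0 and 19 with no filter, 30 and 121 with a trend and robust variance, 3 and 11 with Xist and 14 and 78 with Ddx3y as a covariate, and 0 and 17 at an adjusted p of 0.01. They were 2 and 11 without wild-type 3 and 4, 3 and 9 without knockout 3 and 4, and 0 and 5 without replicate 4 of both groups, where 1719 genes passed an unadjusted p of 0.05 by limma. Leaving out 1 array gave 0 to 23 higher (0 without wild-type 2 or knockout 4, 23 without wild-type 1) and 14 to 64 lower (14 without knockout 4, 64 without wild-type 1). The replicate block, whose numbers do not pair the arrays, gave 2 and 17 and changed no call among the enzymes. For these counts the cause was not tested. With 4 arrays a group, the enzymes' median 95% interval reached 0.31 to either side. Taken gene by gene, that of Alas2 ran from -0.17 to 0.78, and only that of Alad, from 0.03 to 0.46, left out 0.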
